A study of Sus scrofa with 12 samples.

Results

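Transcripts of 10 genes best known from cartilage matrix (CILP, CILP2, COMP, COL11A1, COL2A1, COL9A2, CHAD, CRTAC1, MATN3 and MATN4) were followed in pig hearts after infarction, of 35682 genes in the count data. An identifier was found for 9 of the 10, and COL9A2, a chain of collagen IX, has no levels here and enters only the search of promoter windows. The genes were chosen from values of the same contrast that is described here, border zone against remote zone, so their levels and differences are given as a description, and the calls of a fit across all genes are counted for them only beside the share of all genes, as no support. RNA was sequenced in 12 libraries, a border zone and a remote zone library from each of 6 female Yorkshire pigs, which were 10 to 12 weeks old at the start and are called here by their animal numbers 1022, 1322, 1323, 1623, 1922 and 3622. Every animal had a balloon occlusion of the left anterior descending coronary artery for 60 minutes followed by reperfusion, and from day 9 received tacrolimus at 0.75 mg/kg/day, mycophenolate mofetil at 500 mg/day and prednisolone at 20 mg/day. On day 14 a thoracotomy followed, with either vascular organoids made of human endothelial progenitor and smooth muscle cells or fibrin glue alone placed on the heart, and the tissue was taken 28 days later. The group of an animal was not given in the labels and was not used, so each zone holds animals of both groups. The border zone was the section beside the infarct, the remote zone came from the posterior wall, and both carry the word Mid in their labels. Hearts without injury and the infarct itself were not analysed here. Each library is a piece of whole tissue, in which more cells of a type and more RNA per cell cannot be told apart.

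Cartilage matrix is built around thin fibrils of collagen II, with collagen XI inside and collagen IX on the surface. A set of bridging proteins holds these fibrils to each other and to proteoglycans: COMP, a member of the thrombospondin family, the matrilins MATN3 and MATN4, and chondroadherin (CHAD), a small leucine-rich protein that also binds cells. CILP and its paralogue CILP2 are secreted proteins of the middle layer of cartilage, and CILP is known to bind transforming growth factor β and to be made by fibroblasts of the injured heart. Several of these genes are also used in tendon, and mature healthy myocardium holds little of them.

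Border zone libraries held 15130210 to 30526110 counts in all and remote zone libraries 20091415 to 31618680. Levels are counts scaled to a common library size (CPM) after TMM scaling, which corrects library totals for a few very abundant genes. The border zone library of animal 3622 stood apart, with the lowest total and 28024 genes detected, of which 6127 were counted in no other library, against at most 20148 genes detected in any other. The border zone library of animal 1022 had the lowest mitochondrial share, 5.69%, and the lowest sum of cardiomyocyte markers. Among remote zone libraries the mitochondrial share was 33.5% in animal 3622 and 21.4% in animal 1322, and 13.6% to 14.7% in the other 4. The sum of the 12 identified cardiomyocyte markers of 14, troponins and myosins among them, was 14019 to 80068 CPM in the border zone and 68440 to 113540 CPM in the remote zone, and the border zone sum was lower in 6 of 6 animals. Both zones thus carried heart muscle RNA, with overlapping ranges, and no marker that defines the border zone was read.

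The promoter windows of CILP, the gene with the highest median level per length in the border zone, and of COMP, CILP2 and COL11A1, whose levels differed most between the zones in the median, are shown for sequence context. Each window holds 250 bases before and 50 bases from the RefSeq start of the gene, read 5′ to 3′ on the strand of the gene in the genome build Sscrofa11.1. Capitals mark matches on either strand to the 7 motifs searched, which are named below with their letters.
CILP, chr1:163271173-163271472, minus strand: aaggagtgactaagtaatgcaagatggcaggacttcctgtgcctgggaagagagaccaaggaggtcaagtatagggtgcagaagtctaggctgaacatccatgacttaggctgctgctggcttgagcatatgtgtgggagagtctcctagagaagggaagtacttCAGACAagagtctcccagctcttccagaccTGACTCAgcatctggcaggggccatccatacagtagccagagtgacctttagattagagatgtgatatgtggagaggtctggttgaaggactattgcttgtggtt
COMP, chr2:59061159-59061458, plus strand: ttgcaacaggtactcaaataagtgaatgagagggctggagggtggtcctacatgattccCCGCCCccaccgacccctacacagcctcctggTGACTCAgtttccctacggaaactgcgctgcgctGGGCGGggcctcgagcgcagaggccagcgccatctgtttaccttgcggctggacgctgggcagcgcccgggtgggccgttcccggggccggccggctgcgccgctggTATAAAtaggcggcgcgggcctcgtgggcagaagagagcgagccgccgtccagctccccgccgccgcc
CILP2, chr2:58391924-58392223, minus strand: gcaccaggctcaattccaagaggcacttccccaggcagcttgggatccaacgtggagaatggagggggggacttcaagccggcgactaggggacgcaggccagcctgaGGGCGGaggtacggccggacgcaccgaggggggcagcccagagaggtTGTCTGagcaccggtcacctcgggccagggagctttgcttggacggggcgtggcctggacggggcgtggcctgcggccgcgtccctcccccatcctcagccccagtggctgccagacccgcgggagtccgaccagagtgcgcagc
COL11A1, chr4:115638131-115638430, plus strand: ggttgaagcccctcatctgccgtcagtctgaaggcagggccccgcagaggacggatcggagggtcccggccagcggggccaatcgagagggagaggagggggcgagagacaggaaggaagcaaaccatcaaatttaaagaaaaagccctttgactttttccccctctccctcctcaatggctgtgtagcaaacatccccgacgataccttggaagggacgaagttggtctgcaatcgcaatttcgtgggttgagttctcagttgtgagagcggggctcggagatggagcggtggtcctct

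The AP-1 site, written TGANTCA, was in the windows of CILP and COMP and in 6.07% of all 19561 promoter windows of that length. In the window of COMP it began at base -159 from the start and in that of CILP at base -55. The TATA box, written TATAAA, was found in the window of COMP alone among the 10 genes, beginning at base -18, and in 10.9% of all windows. The GC box, written GGGCGG, was in 5 of the 10 windows (CILP2, COL2A1, COMP, CRTAC1 and MATN3) and in 50.6% of all windows. The SMAD-type box, written CAGACA, was in 4 of the 10 (CILP, CILP2, COL9A2 and MATN3) and in 15.1% of all. The core bound by SOX factors was searched in a pair of forms, ACAAAG, found in the window of MATN4 and in 13.9% of all, and AACAAT, found in the window of COL9A2 and in 8.05% of all. The TEAD site, written GGAATG, was in the window of MATN3 and in 11.8% of all windows. None of the 7 was in the windows of COL11A1 and CHAD, which says only that these letters are not in these 300 bases. The GC content of the windows shown was 49.7% for CILP, 68.0% for COMP, 70.0% for CILP2 and 57.3% for COL11A1, beside a median of 58.7% over all windows. CILP2 and COMP both lie on chromosome 2, 669435 bases apart with 23 protein-coding genes between them.

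CILP (ENSSSCG00000004928; chromosome 1, 163236864 to 163271222) had the highest median border zone level per length of the 9 genes, 39.1 CPM per kilobase, and the most even difference between zones of the 6 that passed the filter on low counts. Its border zone levels were 587 CPM in animal 1022, 183 in 1322, 144 in 1323, 222 in 1623, 102 in 1922 and 277 in 3622. Its remote zone levels, in the same order of animals, were 16.4, 9.69, 37.4, 9.19, 6.91 and 16.4 CPM. The zones did not overlap, and the lowest border zone level was well above the highest remote zone level, that of animal 1323. Within animals the border zone held between 3.86 times (animal 1323) and 35.7 times (animal 1022) as much CILP RNA, a difference of 4.15 in the median on the log2(CPM + 0.1) scale (mean 3.97 ± 1.09 SD, n = 6 animals).

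CILP2 (ENSSSCG00000013934; chromosome 2, 58383568 to 58391973) was far lower than its paralogue, with a median of 2.91 CPM per kilobase in the border zone, and varied far more between animals. It stood at 272 CPM in the border zone of animal 1022, 6.28 in 1322, 6.89 in 1323, 40.5 in 1623, 5.34 in 1922 and 17.2 in 3622. In the remote zone it stood at 0.158, 0, 2.96, 1.30, 0.156 and 0 CPM, so that 2 libraries had no count and those of animals 1022 and 1922 had 4 and 3 counts. The zones did not overlap for CILP2 either, although the remote zone of animal 1323 came near the lowest border zone libraries. A library without a count is here taken at 3 counts, the upper limit that a count of 0 allows, and against it the border zone held at least 43.2 times as much in animal 1322 and at least 85.9 times as much in animal 3622. The other ratios ran from 2.32 in animal 1323 to 1719 in animal 1022, whose remote zone value rests on 4 counts. The median difference was 5.43 (mean 5.66 ± 2.99 SD), and 3.52 with 1 CPM added in place of 0.1.

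COMP (ENSSSCG00000013916; chromosome 2, 59061409 to 59068951), which links collagen fibrils as a bundle of arms in cartilage and tendon, had the largest median difference between zones within animals and the widest spread of it, although COL11A1 had the larger fitted fold change given further on. Its border zone levels were 904 CPM in animal 1022, 14.5 in 1322, 6.24 in 1323, 72.9 in 1623, 4.42 in 1922 and 28.2 in 3622. In the remote zone it was without a count in animals 1022, 1322 and 1922, at 1 count in 3622 (0.0669 CPM), at 1.91 CPM in 1623 and at 7.08 CPM in 1323. COMP was therefore either near absent or plainly present in the remote zone, and the zones overlapped because of animal 1323. In that animal the zones were nearly equal, with 212 counts in the border zone and 215 in the remote zone, a ratio of 0.882 whose direction turned with library totals as the scaling. In animal 1022 the border zone held 27367 counts and the remote zone 0, at least 7613 times as much. The median difference was 6.34 (mean 6.37 ± 4.31 SD), and 4.31 with 1 CPM added.

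**Figure D1:**
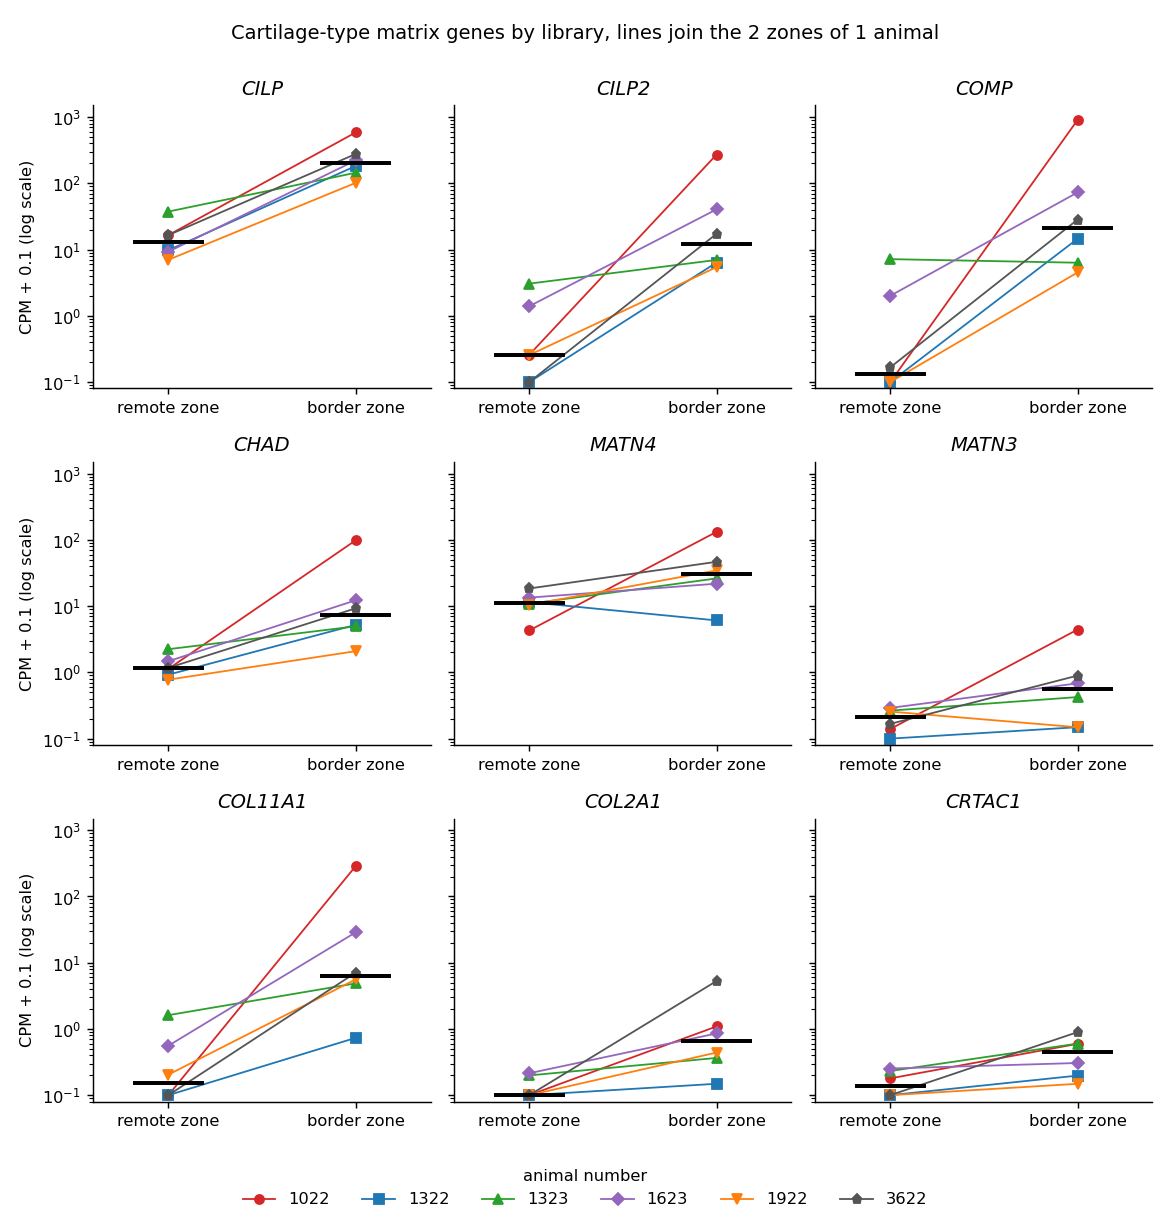
Levels of the 9 identified genes in every library, as CPM + 0.1 on a log axis, with a line joining the remote and the border zone of each animal and black bars at the medians of 6 libraries. CILP runs from 6.91 to 37.4 CPM in the remote zone and from 102 to 587 CPM in the border zone, and the red line of animal 1022 ends highest in the border zone for 7 of the 9 genes.

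COL11A1 (ENSSSCG00000006857; chromosome 4, 115638381 to 115841679), the chain of collagen XI that helps to start thin fibrils, showed a like pattern from a lower base. Its border zone levels were 287 CPM in animal 1022, 0.633 in 1322, 4.77 in 1323, 28.6 in 1623, 5.49 in 1922 and 6.97 in 3622. Its remote zone levels were 0, 0, 1.51, 0.458, 0.104 and 0 CPM. Animal 1022 was high and animal 1322, with 13 counts, was low in the border zone, and only the latter lay below a remote zone library, that of animal 1323. Ratios ran from 3.15 in animal 1323 to 62.5 in animal 1623, and the border zone held at least 2414 times as much in animal 1022, at least 34.7 times in 3622 and at least 4.36 times in 1322. The median difference was 5.23, and 2.77 with 1 CPM added. COL11A1 overlaps 2 annotated genes of the other strand, and since the libraries did not keep the strand, reads of these cannot be told apart in the shared part.

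COL2A1 (ENSSSCG00000025523; chromosome 5, 78350131 to 78380893), which encodes the main collagen of hyaline cartilage, was scarce in every library and did not pass the filter on low counts. It had 30, 1, 9, 22, 7 and 85 counts in the border zone, in the order 1022, 1322, 1323, 1623, 1922 and 3622, and 0, 0, 3, 3, 0 and 0 in the remote zone. Its highest level, 5.20 CPM, was in the library of animal 3622 that stood apart, and without that library the highest was 0.991 CPM, in animal 1022. COL2A1 did not follow COMP and COL11A1 to the high level of animal 1022, where COL11A1 had 8676 counts and COL2A1 had 30. The border zone was the higher in 6 of 6 animals, but no remote zone library exceeded 3 counts, and in animal 1322 a single border zone count stands against 0. COL2A1 overlaps 1 annotated gene of the other strand.

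CHAD (ENSSSCG00000017569; chromosome 12, 26741737 to 26746364) was measurable in both zones of every animal. Its border zone levels were 98.4 CPM in animal 1022, 5.11 in 1322, 4.86 in 1323, 12.2 in 1623, 1.99 in 1922 and 9.17 in 3622, and its remote zone levels were 1.03, 0.824, 2.14, 1.37, 0.676 and 1.07 CPM. The border zone was higher in all 6 animals, from 2.27 times in animal 1323 to 95.6 times in animal 1022, and the zones overlapped only because the border zone of animal 1922 lay just under the remote zone of animal 1323. The median difference was 2.74 (mean 2.93 ± 1.90 SD), and 2.02 with 1 CPM added.

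MATN4 (ENSSSCG00000007391; chromosome 17, 47617559 to 47631195), a matrilin found in many tissues, had the smallest median difference between zones of the 6 genes that passed the filter, and like CILP and CHAD it was counted in every remote zone library. Its remote zone levels were 4.2 CPM in animal 1022, 11.4 in 1322, 10.8 in 1323, 13.4 in 1623, 10.3 in 1922 and 18.4 in 3622. Its border zone levels were 132, 5.99, 26.1, 21.7, 34.5 and 46.6 CPM. Animal 1022 went from the lowest remote zone to the highest border zone level, 31.6 times as much, whereas animal 1322 had less in the border zone, a ratio of 0.526, and its border zone lay under 5 of the 6 remote zone libraries. The other 4 animals had ratios of 1.63 to 3.34, and the median difference of 1.30 was below those of CILP, CILP2, COMP, COL11A1 and CHAD.

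MATN3 (ENSSSCG00000008603; chromosome 3, 118185928 to 118206465), the matrilin that is largely kept to cartilage, did not pass the filter. It had 131, 1, 11, 17, 1 and 13 counts in the border zone and 1, 0, 5, 5, 3 and 1 in the remote zone. Only animal 1022 held more than a trace, 4.33 CPM, and in animal 1922 the border zone was lower than the remote zone. CRTAC1 (ENSSSCG00000010530; chromosome 14, 109237182 to 109390832), an acidic protein of the deep layer of cartilage that is also made in brain, had at most 17 counts in any library. Its 6 border zone libraries had 15, 2, 17, 6, 1 and 13 counts and its remote zone libraries 2, 0, 4, 4, 0 and 0. Its highest level, 0.795 CPM, was again in animal 3622, and 0.50 CPM in animal 1323 was the highest without that library.

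**Figure D2:**
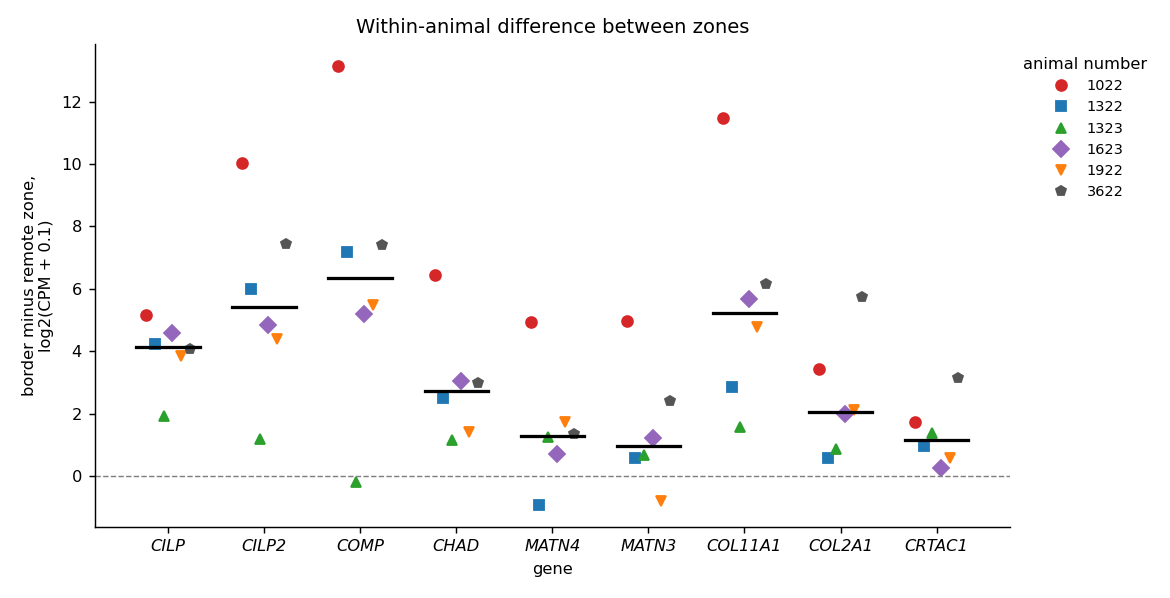
Border minus remote zone of the same animal on the log2(CPM + 0.1) scale, 1 point per animal and a black bar at the median of 6, with 0 as a dashed line. Only 3 points lie under 0, COMP in animal 1323 (-0.18, and above 0 with library totals), MATN4 in 1322 (-0.92) and MATN3 in 1922 (-0.78), and the points of animal 1022 lie highest for 7 genes.

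Of the 9 genes, 6 were higher in the border zone in each of the 6 animals, namely CILP, CILP2, COL11A1, COL2A1, CHAD and CRTAC1. This was so for 4 of the 6 that passed the filter, beside 11.7% of all 13844 genes that passed it. The zones did not overlap for CILP and CILP2, beside 1.99% of all genes. In the quasi-likelihood fit of edgeR, adjusted by Benjamini and Hochberg's method and with zone as the only term, 4 of the 6 genes (CILP, CILP2, COL11A1 and CHAD) had an adjusted p-value under 0.05 in favour of the border zone, beside 2.06% of all genes, while 0.0144% of all genes were called lower there. With the animal as a block, 1 of the 6, CILP, was called, beside 0.289% of all genes. The genes were picked with this contrast known, and nothing is read from these counts against their backgrounds. The fitted log2 fold changes were 3.98 ± 0.52 (SE) for CILP, 6.13 ± 1.33 for CILP2, 6.75 ± 1.75 for COMP, 7.13 ± 1.58 for COL11A1, 4.19 ± 0.89 for CHAD and 1.97 ± 0.57 for MATN4. The median over all genes tested was 0.04.

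A few animals set the size of these differences. Animal 1022 had the highest border zone level for 7 of the 9 genes, all but COL2A1 and CRTAC1, beside 32.6% of all genes tested. Its lead over the next animal was 2.11 times for CILP, 2.84 for MATN4, 5.45 for MATN3, 6.73 for CILP2, 8.10 for CHAD, 10.02 for COL11A1 and 12.4 for COMP. Its border zone made up 87.7% of the sum of the 6 border zone levels of COMP but 38.7% of that of CILP. Without animal 1022 the log2 fold changes were 3.53 for CILP, 3.98 for CILP2, 3.70 for COMP, 4.30 for COL11A1, 2.42 for CHAD and 1.07 for MATN4. All 6 stayed above 0, and CILP alone kept nearly its full size.

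In the remote zone, animal 1323 had the highest level for 5 genes, CILP, CILP2, COMP, COL11A1 and CHAD, beside 18.5% of all genes tested. Animals 1323 and 1623 were each among the highest pair of remote zone libraries for 8 of the 9 genes. For COL2A1, CRTAC1 and MATN3 this rank rests on at most 5 counts, and the share of all genes was not computed. In animals 1323 and 1623 the cartilage-type genes were thus counted in both zones, while COMP and COL11A1 had at most 2 counts in any other remote zone library. Without animal 1323 the log2 fold changes were 8.86 for COMP, 8.94 for COL11A1 and 7.55 for CILP2. The sum of the 7 identified tendon and fibrocartilage markers of 8 was 133 CPM in the remote zone of animal 1323. This was the second highest of the 6 remote zone libraries, whose median was 76.8 CPM, and animal 1623 lay just above that median. The highest sum, 160 CPM, was in animal 3622, whose remote zone had 1 count of COMP and 0 of COL11A1. The sum of the 15 identified fibroblast markers of 16 was 1932 CPM in the remote zone of animal 1323, below the remote zone median of 2111 CPM. In that of animal 1623 it was 2381 CPM, above the median.

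The genes that passed the filter moved together over the 12 libraries, MATN4 least. Pearson r of log2(CPM + 0.1) over 12 libraries was between 0.87 and 0.98 for the 10 pairs among CILP, CILP2, COMP, COL11A1 and CHAD, and between 0.65 and 0.81 for the 5 pairs that include MATN4. The highest r was that of CILP2 and COMP, 0.98. Within the 6 border zone libraries the 10 pairs had r between 0.74 and 0.98, and within the 6 remote zone libraries between 0.47 and 0.96. CILP2 was without a count in 2 remote zone libraries and COMP and COL11A1 in 3 each. Their r in the remote zone thus rests in part on libraries at the floor. MATN4 had r between 0.59 and 0.86 with the other 5 in the border zone, the highest with COL11A1, and between -0.10 and 0.25 in the remote zone. These values describe libraries that share animal, zone and tissue makeup.

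Of 11720 other genes with a symbol, the 5 whose levels were most like the mean z score of the 6 were COL8A2 (r 0.99), FMOD (0.99), MAMDC2 (0.99), CRABP2 (0.99) and COL12A1 (0.98), over 12 libraries. COL8A2 encodes a chain of the short-chain collagen VIII, COL12A1 a fibril-surface collagen of tendon and other dense tissue, FMOD the collagen-binding proteoglycan fibromodulin, and CRABP2 a carrier of retinoic acid within cells. COL8A2 ranged from 1.51 to 66.9 CPM in the border zone and from 0 to 0.955 CPM in the remote zone. COL12A1 ranged from 39.3 to 1103 CPM and from 5.08 to 19.7 CPM. In all 259 genes had r over 0.9, among them the collagen genes COL1A1 (0.92) and COL3A1 (0.90) that are high in any scar, while SOX9, the main transcription factor of cartilage, had 0.79.

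Per kilobase of exon, which allows levels of different genes to be compared, CILP came first in the border zone of 5 animals, with 42.8% to 74.5% of the summed CPM per kilobase of the 9 genes. In animal 1022 COMP came first with 54.3% and CILP made up 16.5%. In the remote zone MATN4 came first in 4 animals, with 52.1% to 63.9%, and CILP in animals 1022 and 1323. The share of CHAD was lower in the border zone in 6 of 6 animals, at 2.90% to 7.38% against 5.82% to 10.4%. COL2A1 made up at most 1.08% of the sum in any library, that of the border zone of animal 3622. Between zones the mix thus differed as well as the amount, which summed to 35.3 to 687 CPM per kilobase in the border zone and to 4.996 to 15.6 CPM per kilobase in the remote zone.

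**Figure D3:**
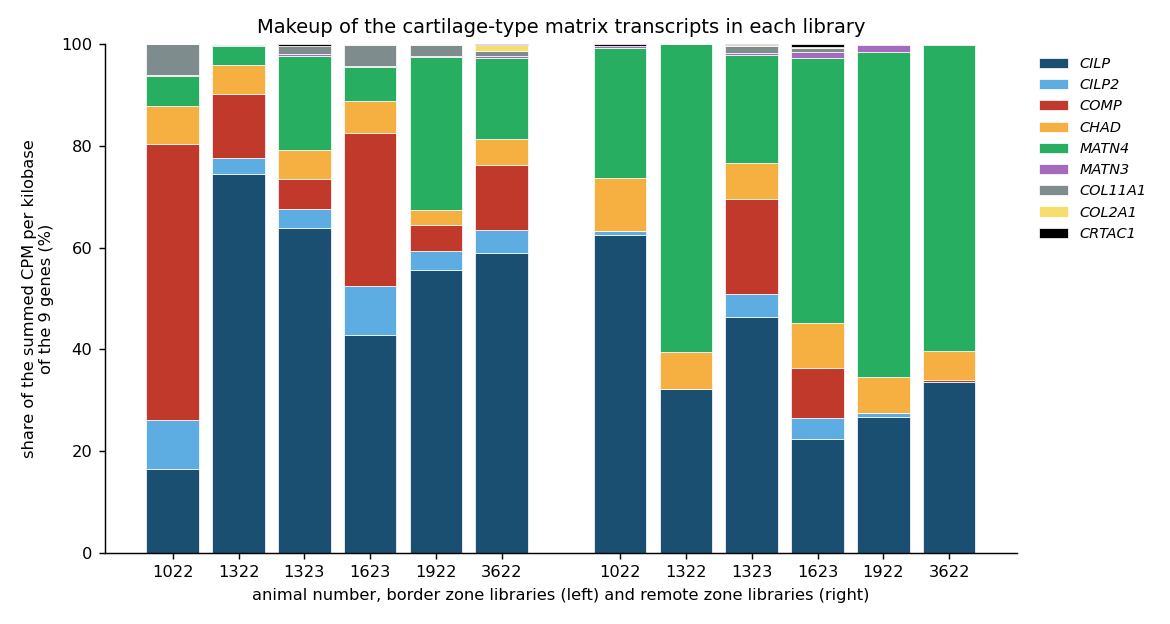
Share of each of the 9 genes in their summed CPM per kilobase of exon, in percent, 1 bar per library with border zone libraries on the left and remote zone libraries on the right. CILP (dark blue) is the largest share in 5 border zone libraries, COMP (red) in that of animal 1022 with 54.3%, and MATN4 (green) in 4 remote zone libraries.

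Set against COL1A1, the main collagen gene of scar, the genes parted. CILP stood at 19.2 to 208 CPM per 1000 CPM of COL1A1 in the border zone and at 17.3 to 96.8 in the remote zone, higher in the border zone of 4 animals and lower in animals 1022 and 1323. COMP stood at 1.10 to 29.7 per 1000 in the border zone and at 0 to 18.3 in the remote zone, higher in 5 animals. CHAD was higher in 3 animals, with medians of 4.03 and 2.34 per 1000. MATN4 was lower per 1000 CPM of COL1A1 in 6 of 6 border zones, with medians of 8.67 and 27.2. Animal 1022, highest in CPM for these 4 genes, was the lowest of the 6 border zones for CILP and MATN4 on this scale, and the highest for COMP. Set against the sum of the 15 fibroblast markers in place of COL1A1, CILP and CHAD were higher in the border zone of 4 animals, COMP in 5 and MATN4 in 1. On that scale animal 1022 was again the highest border zone for COMP, while animal 1922 was the lowest for CILP and animal 1322 for MATN4.

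**Figure D4:**
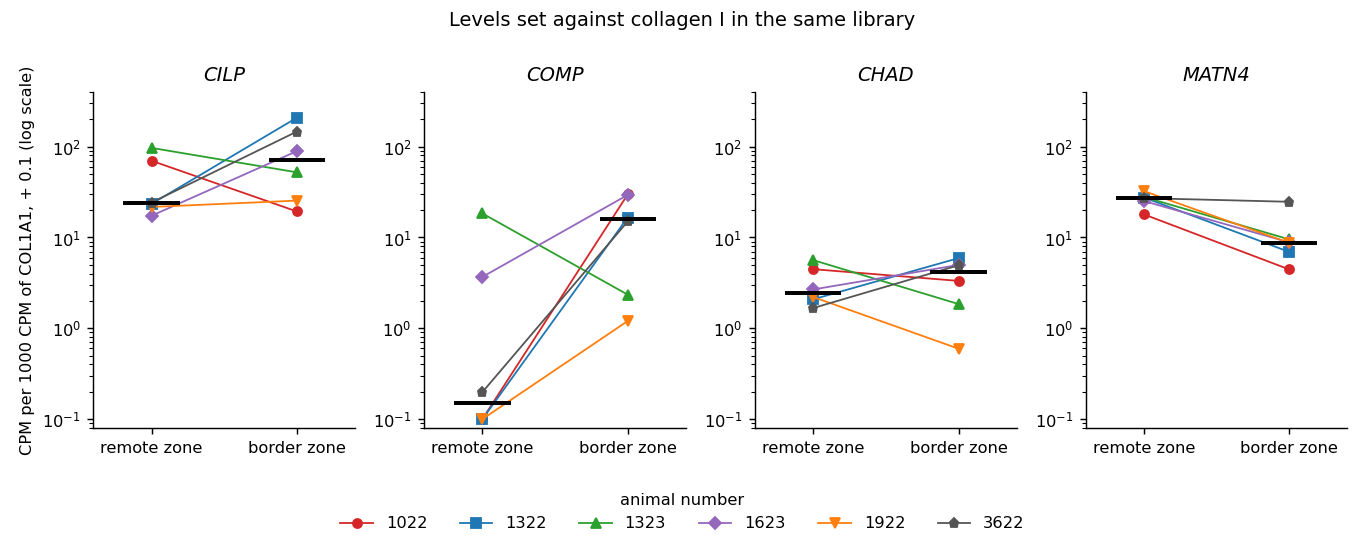
CILP, COMP, CHAD and MATN4 as CPM per 1000 CPM of COL1A1 in the same library, plus 0.1 on a log axis, with lines joining the zones of an animal and black bars at the medians. The lines of MATN4 all fall toward the border zone, from a median of 27.2 to 8.67, while those of CILP and CHAD go both ways.

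Markers of other cells were read beside the genes. The sum of the 15 fibroblast markers was 3753 to 72956 CPM in the border zone and 1396 to 3401 CPM in the remote zone, with the border zone higher in 6 of 6 animals and animal 1022 highest. The sum of the 12 macrophage markers was 146 to 1644 CPM and 134 to 281 CPM, higher in 5 animals. Of the 11 chondrocyte-defining markers, all of them identified, the sum was 2.34 to 218 CPM in the border zone and 1.72 to 3.14 CPM in the remote zone. Most of the sum in animal 1022 was ACAN, which encodes the cartilage proteoglycan aggrecan, at 188 CPM, followed by SOX9 at 15.1 CPM and COL9A3, a collagen IX chain, at 13.1 CPM. ACAN was 6.87 CPM in the border zone of animal 1623 and at most 1.41 CPM in the other 4. The remaining 8 markers (HAPLN1, MATN1, COL9A1, COL11A2, COL10A1, CNMD, SNORC and UCMA) had at most 33 counts in any library, and SNORC and UCMA were at 0 in every remote zone library.

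The sum of the 7 tendon and fibrocartilage markers was 341 to 4133 CPM in the border zone and 41.1 to 160 CPM in the remote zone, without overlap and higher in all 6 animals. Most of it was THBS4 and FMOD. KERA, the keratan sulfate proteoglycan keratocan, ranged from 7.33 to 19.1 CPM in the border zone and from 0.104 to 4.05 CPM in the remote zone, and TNMD, the tendon marker tenomodulin, had at most 24 counts and was at 0 in every remote zone library. The sum of the 9 bone markers was 15.5 to 22.9 CPM and 11.3 to 22.7 CPM, with MEPE and IHH at 0 in the remote zone and RUNX2 up to 15.0 CPM in the border zone of animal 1022. The part of these cell types in the levels of the cartilage-type genes was not tested.

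Of the other genes of cartilage matrix and its regulation, 36 passed the filter. All lists of such genes, here and below, were chosen with earlier results of these data known. Their calls are thus given as a description and not as support. Of these 36, edgeR's quasi-likelihood test called 12 higher and 0 lower in the border zone, beside 2.06% and 0.0144% of all genes. With the animal as a block 1 was called, THBS3. Of the 17 other cartilage matrix genes 4 were tested and all 4 rose, 12 did not pass the filter, ACAN, HAPLN1 and COL9A3 among them, and PRG4 had no identifier. FMOD rose most, from 5.27 to 23.3 CPM in the remote zone to 42.7 to 1740 CPM in the border zone, a log2 fold change of 4.83 ± 0.93 (edgeR, adjusted p = 0.0276). PRELP, another collagen-binding proteoglycan, had 2.75 ± 0.58 (edgeR, adjusted p = 0.0338), COL27A1, a fibrillar collagen of cartilage, 1.99 ± 0.48 (edgeR, adjusted p = 0.0489) and MATN2, a broadly made matrilin, 1.49 ± 0.23 (edgeR, adjusted p = 0.0159). The median log2 fold change of these 4 was 2.37.

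Of the 8 chondrogenic transcription factors 5 were tested and 0 were called by edgeR, SOX9 having a log2 fold change of 1.89 ± 0.52 with an adjusted p of 0.0661. SOX6, a partner of SOX9, had -0.47 ± 0.21 (edgeR, adjusted p = 0.186) and was lower in 6 of 6 border zones, at 4.03 to 10.7 CPM against 10.1 to 12.1 CPM. SCX, the tendon factor scleraxis, had 2.05 ± 0.55 (edgeR, adjusted p = 0.0633). Of the 15 growth factors and receptors 14 were tested, and TGFB3 and IGF1 rose, both ligands that act on cartilage and on fibroblasts. TGFB3 went from 8.47 to 16.1 CPM in the remote zone to 27.3 to 165 CPM in the border zone, a log2 fold change of 2.43 ± 0.36 (edgeR, adjusted p = 0.0123), and IGF1 had 1.83 ± 0.34 (edgeR, adjusted p = 0.0276). TGFB1, at 46.1 to 120 CPM in the border zone and 46.8 to 72.3 CPM in the remote zone, had 0.26 ± 0.22 (edgeR, adjusted p = 0.475).

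All 4 thrombospondin relatives of COMP were tested and 3 rose, THBS4 by 3.27 ± 0.58 (edgeR, adjusted p = 0.0244), THBS3 by 2.89 ± 0.47 (edgeR, adjusted p = 0.0189) and THBS2 by 2.81 ± 0.67 (edgeR, adjusted p = 0.0489) on the log2 scale. THBS4, which like COMP is a protein of tendon, was 284 to 2351 CPM in the border zone and 30.1 to 141 CPM in the remote zone, so that it was plainly present in all remote zone libraries, where COMP was at 0 in 3. Of the collagen V chains, which share fibrils and chain mixtures with COL11A1, COL5A2 rose by 3.04 ± 0.63 (edgeR, adjusted p = 0.0338) and COL5A1 by 2.93 ± 0.58 (edgeR, adjusted p = 0.0293) on the log2 scale, of 3 tested. COL5A1 was 81.8 to 187 CPM in the remote zone, where COL11A1 had at most 1.51 CPM. Of the 6 proteases and inhibitors tested, of 8, ADAMTS4, an enzyme that cuts aggrecan, rose by 2.699 ± 0.57 (edgeR, adjusted p = 0.0338), and MMP3 and MMP13 had at most 5 counts in any library. Without both libraries of animal 1022, edgeR called 10 of these genes. COL27A1 (log2 fold change 1.39, adjusted p = 0.117 by edgeR) and ADAMTS4 (2.05, adjusted p = 0.0725 by edgeR) were not among them. The log2 fold changes of the 10 were then smaller, at 2.90 for FMOD, 1.60 for PRELP, 1.28 for MATN2, 1.85 for TGFB3, 1.38 for IGF1, 2.36 for THBS4, 2.23 for THBS3, 1.5 for THBS2, 1.75 for COL5A2 and 1.81 for COL5A1. Without both libraries of animal 1323, 1623, 1922 or 3622 edgeR called 0, with 23 to 26 genes at an unadjusted p under 0.05. The log2 fold changes of the genes called with all animals stayed above 0 with any animal left out. Without animal 3622 that of ADAMTS4 was 2.65, and those of the others were larger than with all animals, FMOD having 5.02.

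**Figure D5:**
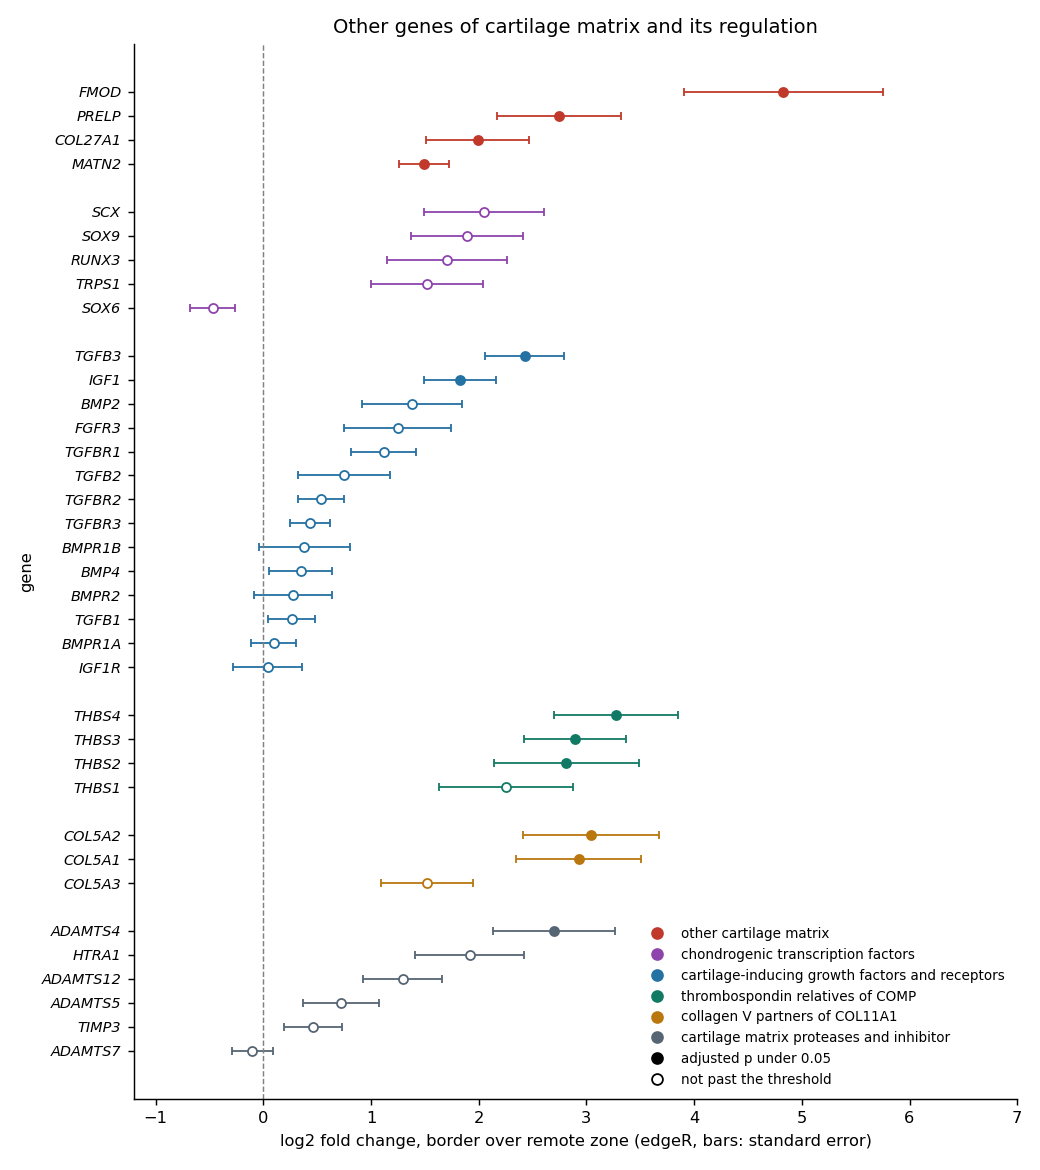
Log2 fold change of border over remote zone for the 36 other genes tested, by list, with bars of 1 standard error and filled points for an adjusted p under 0.05 by edgeR. Filled points are the 12 genes called, from MATN2 at 1.49 to FMOD at 4.83, and SOX6 and ADAMTS7 lie under 0.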

How the data were processed

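Raw counts of reads per gene were deposited by the authors, who made poly(A)-enriched, nondirectional libraries, used STAR to align paired reads to Sscrofa11.1, and featureCounts to count them per gene. Its options for reads matching several genes are not given in the sources used here. The authors used DESeq2, and its design formula is not given in the sources used here.

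Gene symbols were matched to 15623 of 35682 identifiers. The tools were R 4.3.3, edgeR 4.0.16 (filterByExpr, TMM, robust quasi-likelihood test, Benjamini-Hochberg over 13844 genes) and DESeq2 1.42.0, and Python 3.11.15. Standard errors were obtained as log2 fold change over √F. Libraries summed to between 15130210 and 31618680 counts. Intervals and the limit of 3 counts cover counting error only, since PCR copies were not told apart. Of these steps, only the edgeR fit with zone as the only term was tested on simulated counts.

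Libraries with the same number are from the same animal, so the numbers pair them. Adjusted p-values are from the fit with zone as the only term unless the animal block is named. Across genes, their deviations from the zone means had an r of 0.346 on average (lowest -0.0312, animal 1022, highest 0.576, animal 1323), and 4 of 6 pairs were over 0.1. With zone as the only term, p-values measure the spread between libraries within a zone, and the pairing by animal is not used. With the animal as a block they measure the spread of the differences within animals. The animals include both treatment groups.

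The 10 genes and all lists were chosen with earlier results of these data known. Named are all 10 genes, of each list the genes past an adjusted p of 0.05 (at most 4, by fold change) or, where none passed, the 2 with the highest mean CPM, the 5 genes most like the mean z score, and markers of the chondrocyte, tendon and bone lists at 0 in every remote zone library. SOX9, TGFB1, ACAN, COL9A3, HAPLN1, MATN1, COL9A1, COL11A2, COL10A1, CNMD, KERA, RUNX2, COL1A1, COL3A1, ADAMTS7, MMP3, MMP13, DES, LPL and PRG4 were named beyond this rule, after their values were seen. Alternatives were the animal as a block, a minimum of 10 counts in every library, no filter, library totals or DESeq2 size factors as scaling, the Wald test of DESeq2, each animal left out, the border zone library of 1022 or 3622 left out, no mitochondrial protein genes, and pseudocounts of 0.5 and 1 CPM. Marker lists for endothelium, smooth muscle and pericytes, lymphocytes, adipocytes and mesothelium gave summed border zone levels of 472 to 670, 8194 to 17187, 15.3 to 102, 212 to 1097 and 23.4 to 136 CPM, and remote zone levels of 357 to 824, 8431 to 12904, 14.3 to 22.9, 762 to 1064 and 25.1 to 95.9 CPM. Most of the smooth muscle and pericyte sum was DES, at 5121 to 16061 CPM in the border zone and 7690 to 12080 CPM in the remote zone. Most of the adipocyte sum was LPL, at 162 to 1038 and 698 to 1031 CPM. Of the 8 mesothelial markers 4 were identified, and these sums are not read as amounts of cells. Coordinates are those of RefSeq on Sscrofa11.1.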

Additional observations from a re-analysis of the deposited data

How the results depend on the processing

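The log2 fold changes of CILP, CILP2, COMP, COL11A1, CHAD and MATN4 kept their direction under every alternative that could be computed, as did the median within-animal differences of all 9 genes under other pseudocounts and scalings, although 1 CPM added gave smaller medians, as given beside CILP2, COMP, COL11A1 and CHAD. Of the 54 differences of single animals, 1 changed sign with the scaling, COMP in animal 1323, which was -0.18 in the main values, -0.20 with DESeq2 size factors and 0.03 with library totals. With at least 10 counts in every library CILP2, COMP and COL11A1 were not tested, and DESeq2 gave COMP no adjusted p. The count of genes with an adjusted p under 0.05, 287 in the main comparison (285 higher), was 41 with the animal as a block, 1476 by the DESeq2 Wald test (1186 higher), 1551 with library totals (1545 higher), 139 without a filter, 149 with at least 10 counts in every library and 156 without the border zone library of animal 3622. Leaving out each animal gave 0 to 519, with 3 without 1323, 0 without 1623 or 3622 and 15 without 1922, and edgeR then had 2662 genes (without 1623) and 2448 genes (without 3622) at an unadjusted p under 0.05. The 12 genes called among the other genes of cartilage matrix and its regulation became 1 with the block, 19 by DESeq2, 21 with library totals, 7 without a filter and 0 to 14 with an animal left out, being 0 without 1323, 1623, 1922 or 3622. With library totals the median over all genes was 0.32 on the log2 scale in place of 0.04, and SCX passed with them (adjusted p = 0.0237) and by DESeq2 (adjusted p = 0.00586). The causes of these changes were not tested. Remote zone counts under 10 limit the ratios of CILP2, COMP and COL11A1 outside animals 1323 and 1623, and all those of COL2A1, CRTAC1 and MATN3.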
